A study of Mus musculus with 5 samples.

Results

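Collagen genes were taken as all genes whose symbol reads Col, a number, a and a number, as in Col1a1. The gene lists of the 5 libraries held 44 such genes among 32285 genes, of which 11 encode chains of fibrillar collagens, 8 chains of basement membrane collagens and 25 chains of other collagens. Single cells were prepared from kidneys of wild-type C57BL/6 mice, all male and between 8 and 10 weeks old, with no transgene or deletion in any group. Mice of the AKI group were given aristolochic acid I (AAI), a nephrotoxin of Aristolochia plants, at 3 mg/kg into the peritoneum every 3 days and their kidneys were taken at week 2 (libraries AKI 1 and AKI 2). Mice of the CKD group had the same injections followed by 2 weeks without AAI, and their kidneys were taken at week 4 (libraries CKD 1 and CKD 2). Control mice received vehicle (1 library, control), so the control entered no test between groups. How many mice went into a library is not given in the sources used here, and p-values therefore measure only the spread between these libraries.

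Collagens are proteins of 3 chains wound into a triple helix. Fibrillar collagens, led by type I (Col1a1 and Col1a2) and type III (Col3a1), form the cable-like fibres of the interstitium that accumulate in renal fibrosis, and fibroblasts are their best known source. Type IV collagen is the sheet-forming network of basement membranes. Its Col4a1 and Col4a2 chains are found in nearly all basement membranes, whereas the Col4a3, Col4a4 and Col4a5 chains form the mature network of the glomerular basement membrane and of some tubules, and their mutation causes Alport syndrome. Types XV and XVIII, encoded by Col15a1 and Col18a1, carry sugar chains and sit at the outer face of basement membranes. Types XII and XIV (Col12a1 and Col14a1) bind to the surface of fibrils, and type VI (Col6a1, Col6a2 and Col6a3) forms beaded filaments.

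Each value is the number of collagen UMIs (unique molecular identifiers, each standing for 1 captured RNA molecule) per 10000 UMIs of all genes in the cells of a class, and is called a level. The 3′ chemistry counts a molecule once whatever its length, so levels of different genes were compared without dividing by length. The libraries kept 8405 to 16330 cells and 56027489 to 85463950 UMIs, in which 54 clusters gave 17 cell classes, each called "-like" after its markers. CKD 1 stood apart, with a median of 2772.5 UMIs per stromal-like cell against 4731 to 7120 in the other libraries, and 2837 against 10385 to 22355.5 per thick ascending limb-like cell. In the control, 91 cells shared a barcode with a CKD 2 cell of over 20 times their UMIs and were left out, which left the mean fibrillar level of stromal-like cells at 40.4 with or without them. The control also lost 5790 of 14958 barcodes to the limit on mitochondrial UMIs. The losses were 1398 of 12601 in AKI 1, 1578 of 12430 in AKI 2, 2720 of 22034 in CKD 1 and 1366 of 10873 in CKD 2. The part of this loss in orders of the control against the AAI libraries was not tested. T lymphocyte-like cells, which should make no collagen, gave the background from free RNA, and their summed collagen level was 0.145 to 0.955 in the 5 libraries.

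Most collagen UMIs of the kept cells came from genes of basement membrane chains. All kept cells held 192236 collagen UMIs, of which 80.1% came from the 8 basement membrane genes, 13.4% from the 11 fibrillar genes and 6.51% from the 25 others. These shares depend on how many cells of each class were kept, 418 of them stromal-like, and do not measure the whole kidney. Col18a1 (42351 UMIs), Col4a1 (41519), Col4a4 (26875), Col4a2 (22727) and Col4a3 (11199) led the list. They were followed by the fibrillar gene Col27a1 (7826), Col4a5 (5575), Col1a2 (5473), Col3a1 (4600) and Col5a2 (3487). Another 15 members had fewer than 100 UMIs, and Col9a1, a chain of cartilage type IX collagen, had 0.

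Per UMI, stromal-like cells were the richest in collagen, though they were only 418 cells. Their summed collagen level was 87.9 in the control, 81.7 and 89.9 in AKI and 46.0 and 72.4 in CKD. Podocyte-like cells followed with 9.14 to 32.5 and endothelial-like cells with 13.9 to 23.5. Tubular classes reached 10.7 to 16.8 in thin limb-like cells, 8.01 to 10.7 in intercalated-like cells, 8.77 to 12.8 in principal and connecting tubule-like cells, 6.26 to 9.97 in thick ascending limb-like cells and 4.6 to 6.53 in proximal tubule-like cells. Macrophage-like cells were at 1.95 in the control, 0.997 and 0.846 in AKI and 1.31 and 0.905 in CKD, above the T lymphocyte-like background of the same libraries (0.955, 0.448, 0.356, 0.369 and 0.145).

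**Figure D1:**
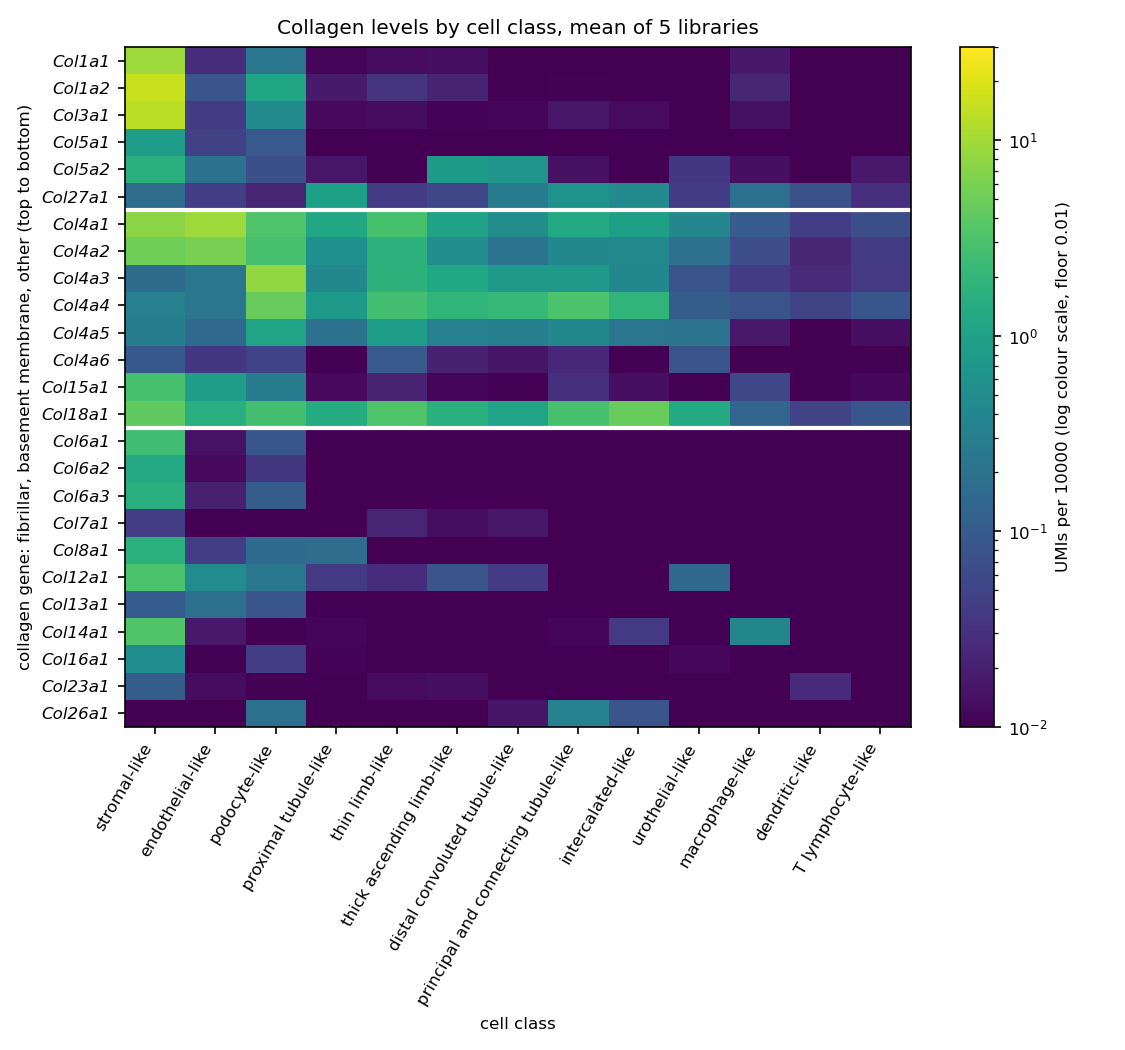
Mean level of 25 collagen genes (rows) in 13 cell classes (columns), as UMIs per 10000 UMIs averaged over the 5 libraries and coloured on a log scale with a floor of 0.01. Col1a1, Col1a2 and Col3a1 are bright in stromal-like cells, where they hold 86.4%, 81.8% and 87.5% of their UMIs, while Col4a1 and Col18a1 spread over endothelial-like and tubular classes.

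The fibrillar genes of type I and type III collagen were almost restricted to stromal-like cells, and 2 of their promoters are shown because these genes carried the stromal pattern. The 250 bases before the RefSeq start of Col1a2, at chr6:4505368-4505617 on the plus strand of GRCm38.p6, and of Col3a1, at chr1:45311288-45311537 on the plus strand of the same build, are given 5′ to 3′ with CCAAT, searched on both strands, in capitals.
Col1a2: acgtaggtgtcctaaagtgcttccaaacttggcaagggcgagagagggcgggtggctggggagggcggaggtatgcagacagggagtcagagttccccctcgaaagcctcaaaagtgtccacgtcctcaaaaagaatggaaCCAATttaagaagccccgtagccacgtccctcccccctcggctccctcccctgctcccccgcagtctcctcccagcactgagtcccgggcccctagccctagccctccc
Col3a1: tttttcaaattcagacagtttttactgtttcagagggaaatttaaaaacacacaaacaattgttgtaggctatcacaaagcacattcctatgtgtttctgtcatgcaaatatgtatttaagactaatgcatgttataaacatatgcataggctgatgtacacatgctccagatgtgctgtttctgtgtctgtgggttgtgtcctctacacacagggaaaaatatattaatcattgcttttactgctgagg
The Col1a2 window held 1 CCAAT, at position -109 from the start, 2 copies of GGGCGG and no TATAAA, whereas the Col3a1 window held 1 TATAAA and neither of the other motifs. Among the 35 members with a RefSeq promoter, 12 held CCAAT, 5 TATAAA and 21 GGGCGG. Over all 27025 promoters of the same length the shares were 34.5%, 13% and 32.9%. The motifs do not overlap each other and are a description of the letters only.

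Col1a2, the second chain of type I collagen, was at 18.6 in stromal-like cells of the control, 13.7 and 14.8 in the AKI libraries and 11.8 and 16.9 in the CKD libraries, replicate 1 first. Col3a1, the sole chain of type III collagen, was at 15.8, 12.8, 16.6, 7.84 and 12.8 in the same order, and Col1a1, the main chain of type I collagen, at 11.1, 9.91, 9.20, 5.51 and 10.2. The control held the highest Col1a1 and Col1a2 level and CKD 1 the lowest level of all 3 genes. AKI and CKD overlapped for all 3 genes, for Col3a1 only narrowly (12.82 in AKI 1 and 12.83 in CKD 2). In T lymphocyte-like cells the same genes stood at 0.00211 to 0.00536 for Col1a1, 0.00183 to 0.00877 for Col1a2 and 0.00366 to 0.0232 for Col3a1. The ratio of Col1a1 to Col1a2 UMIs in stromal-like cells was 0.469 to 0.726 in the 5 libraries, so fewer Col1a1 than Col1a2 molecules were counted in each of them.

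Whether stromal-like cells differed from endothelial-like cells of the same library was tested with edgeR over all 5 libraries, with library as a block. Of 27 collagen genes that passed the filter on low counts, 22 had an adjusted p under 0.05 and all 22 were higher in stromal-like cells (24 at unadjusted p under 0.05, 19 called by DESeq2). Over all genes, 43.8% were called in either direction and 23.3% as higher in stromal-like cells, and 5759 of 11263 had an unadjusted p under 0.05. Col1a1 was higher by 8.43 on the log2 scale (SE 0.44, edgeR adjusted p = 3.4e-08), Col3a1 by 8.29 (SE 0.33), Col1a2 by 7.59 (SE 0.43), Col14a1 by 7.57 (SE 0.26) and Col6a1 by 7.22 (SE 0.36). The cells were clustered without collagen genes, but on other genes of the same cells, so the p-values measure the spread between libraries and not the choice of classes.

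The basement membrane genes divided in that test. Col15a1 (1.62, SE 0.25) and Col18a1 (1.47, SE 0.23) were higher in stromal-like cells, as were Col4a5 (0.93, SE 0.26) and Col4a6 (1.38, SE 0.52), the last with an edgeR adjusted p of 0.0496. Col4a1, whose difference was -0.31 (SE 0.19, edgeR adjusted p = 0.206), was higher in stromal-like cells in 1 of 5 libraries, and it passed as lower in stromal-like cells without the control (-0.52, edgeR adjusted p = 0.0189), with doublets kept (-0.56), with collagen genes among the clustering features (-0.59) and without the filter on low counts (-0.42). Col4a2 (-0.18, SE 0.21), Col4a3 (-0.30, SE 0.28), Col4a4 (0.47, SE 0.21) and the transmembrane collagen gene Col13a1 (-0.98, SE 0.40) did not pass either. Col13a1 had 76.5% of its UMIs in endothelial-like cells, at 0.314 in the control, 0.150 and 0.0973 in AKI and 0.139 and 0.221 in CKD.

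Stromal-like cells were a mixture, and collagen genes divided them further. A fibroblast-like subcluster of 70 cells, led by Sfrp4, Pi16 and Lum, had Col1a2 levels of 52.4, 18.2, 42.1, 40.7 and 29.6 in the control, AKI 1, AKI 2, CKD 1 and CKD 2, and Col3a1 levels of 47.0, 14.3, 41.5, 23.6 and 20.5. These libraries gave it 24, 5, 9, 19 and 13 cells, and the lowest of both genes came from the 5 cells of AKI 1. A mural-like subcluster of 76 cells, led by the smooth muscle genes Cnn1, Pln and Acta2, had pooled levels of only 0.671 for Col1a2 and 1.28 for Col3a1, beside 5.66 for Col18a1 and 5.21 for Col4a1. An unnamed subcluster, of 85 cells led by Fbln5 and Cxcl9, had pooled levels of 14.7 for Col3a1 and 6.17 for Col15a1.

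CKD against AKI in stromal-like cells sets the injury phase of the model against the phase after AAI was stopped. The make-up of the class also differed between these libraries. The fibroblast-like subcluster gave 5 of 69 and 9 of 71 class cells in AKI and 19 of 124 and 13 of 43 in CKD. An unnamed subcluster led by Cxcl14 and Cck gave 16 and 20 cells in AKI and 17 and 8 in CKD. That led by Fbln5 gave 11, 14, 33 and 3 in the same order. Differences in this class therefore do not hold the mixture of subclusters fixed, and the part of the mixture in them was not tested. None of the 21 collagen genes tested passed edgeR's adjusted p of 0.05 (8 had an unadjusted p under 0.05, and DESeq2 called 1, Col8a1), beside 0.126% of all genes called. Over all 7166 genes tested, 686 had an unadjusted p under 0.05. The members' median difference was -0.38 on the log2 scale against 0.01 over all genes tested. Col1a1 differed by -0.16 (SE 0.30, edgeR adjusted p = 0.924) and Col1a2 by 0.14 (SE 0.26, adjusted p = 0.918), less than their standard errors, and Col3a1 by -0.38 (SE 0.29, adjusted p = 0.696).

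The 8 genes with an unadjusted p under 0.05 were Col8a1, Col18a1, Col12a1, Col15a1, Col5a2, Col4a2, Col4a1 and Col5a1, and in each of them both CKD libraries lay below both AKI libraries. Col8a1, a chain of the short network-forming type VIII collagen, was at 1.09 in the control, 3.08 and 2.87 in AKI and 0.338 and 1.00 in CKD (-2.04, SE 0.41, edgeR adjusted p = 0.136). The AKI level was thus above the control and both CKD levels were below it. Col12a1 was at 1.25, then 4.74 and 5.96 in AKI, then 1.25 and 2.41 in CKD (-1.43, SE 0.32, edgeR adjusted p = 0.167). Col15a1 was at 1.80, then 4.98 and 4.69, then 0.866 and 2.15 (-1.56, SE 0.37, edgeR adjusted p = 0.203). For both genes each AKI library was above the control, whose level lay between the CKD libraries for Col15a1 and at the lower of them for Col12a1. Col18a1, at 3.73, 5.16, 6.89, 2.45 and 2.73, showed -1.09 (SE 0.25, edgeR adjusted p = 0.167), and Col5a2, the second chain of type V collagen, -1.18 (SE 0.34, adjusted p = 0.295).

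**Figure D2:**
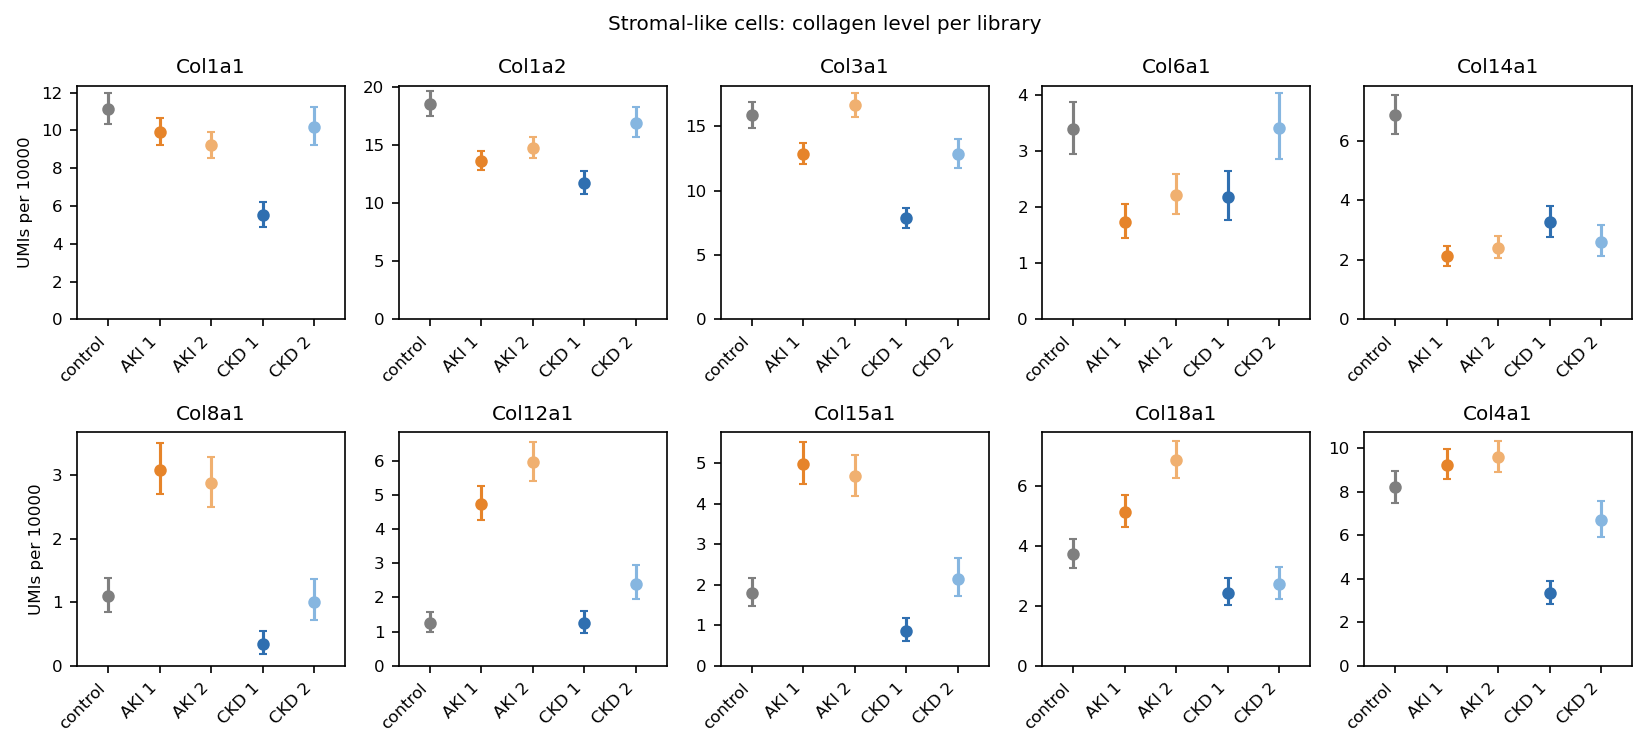
Level of 10 collagen genes in stromal-like cells (vertical axis, UMIs per 10000 UMIs) for each of the 5 libraries, with exact 95% Poisson intervals that cover counting error only. Col8a1, Col12a1 and Col15a1 are higher in both AKI libraries than in the control and both CKD libraries, while Col1a2 overlaps between AKI (13.7 and 14.8) and CKD (11.8 and 16.9).

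Genes of type XIV and type VI collagen were not lower in both CKD libraries. Col14a1 was at 6.86 in the control, 2.11 and 2.40 in AKI and 3.25 and 2.61 in CKD (0.51, edgeR adjusted p = 0.538), so every AAI library lay below the control in the class as a whole. In the fibroblast-like subcluster it was at 8.48 in the control, 6.06 and 9.19 in AKI and 12.6 and 4.04 in CKD, without that order. The unnamed subclusters led by Fbln5 and by Cxcl14 kept the order, at 17.0 and 11.3 in the control and at most 3.62 and 2.08 in the AAI libraries. Col6a1 was at 3.39, 1.73, 2.22, 2.18 and 3.41 (0.63, adjusted p = 0.535), Col6a2 at 1.70, 0.904, 1.03, 1.08 and 1.58, and Col6a3 at 2.99, 1.17, 1.23, 0.866 and 1.35. Col6a2 and Col6a3 were thus highest in the control, and Col6a1 was highest in the control and CKD 2.

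The size of the differences in stromal-like cells turned on single libraries, though each such fit left 1 library in a group. Without CKD 1 the differences were -1.43 for Col8a1, -1.02 for Col15a1, -1.01 for Col12a1, -1.0 for Col18a1 and 0.93 for Col6a1. Without CKD 2 they were -3.04 for Col8a1, -2.38 for Col15a1, -2.01 for Col12a1, -0.82 for Col3a1 and -0.70 for Col1a1. The summed level of the 10 stromal markers in these cells was 174, 81.9, 93.1, 135 and 153, that of the 6 thick ascending limb markers 7.61, 0.957, 1.32, 12.7 and 0.276, and that of the 10 T lymphocyte markers 0.129, 3.55, 2.89, 6.32 and 8.79 in the control, AKI 1, AKI 2, CKD 1 and CKD 2, and their part in the differences was not tested. The unnamed subcluster led by Fbln5 and Cxcl9 had Col8a1 levels of 0.216 in the control, 4.90 and 6.92 in AKI and 0.283 and 1.27 in CKD, and that led by Cxcl14 and Cck, of 68 cells, had 0.281, 4.06, 2.23, 2.04 and 1.01. In the first both CKD levels were below both AKI levels, as in the whole class. Its control, CKD 1 and CKD 2 levels rested on 3, 3 and 7 UMIs, too few to rank CKD against the control. In the second AKI 2 and CKD 1 nearly met.

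Endothelial-like cells were the largest source of Col4a1 and Col4a2, with 36.9% and 41.4% of their UMIs. Col4a1 was at 5.81 in the control, 10.9 and 12.2 in AKI and 7.2 and 10.3 in CKD, and Col4a2 at 3.17, 6.70, 7.86, 4.41 and 6.71. Each AAI library was above the control for both genes. Both CKD levels of Col4a1 lay below both AKI levels, whereas those of Col4a2 overlapped. The type IV chains differed between vessel types. Peritubular capillary-like subclusters of 889 and 681 cells had Col4a1 at 7.11, 17.4, 15.9, 12.0 and 12.7 and at 7.2, 17.1, 18, 13 and 13.3, whereas the larger arterial or vasa recta-like subcluster, of 457 cells, had 4.11, 5.80, 5.98, 4.15 and 6.57.

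Col18a1 had the reverse distribution over the vessels, as did Col12a1 in the larger arterial or vasa recta-like subcluster. In that subcluster Col18a1 was at 3.27, 5.73, 4.13, 4.05 and 3.07, and Col12a1 at 3.26, 1.33, 0.786, 1.5 and 1.38, highest in the control. Col18a1 was at no more than 0.269 in any library of the peritubular capillary-like subclusters. A smaller arterial or vasa recta-like subcluster, of 156 cells, had a pooled Col18a1 level of 4.47 but too few Col12a1 UMIs for a level. Col15a1 was at 1.32, 2.25, 1.25, 1.35 and 1.35 in the larger peritubular capillary-like subcluster. A glomerular-like subcluster held only 33 cells, with a pooled Col4a1 level of 9.91.

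None of the 16 collagen genes tested in endothelial-like cells differed between CKD and AKI by edgeR (0 also at unadjusted p under 0.05 and 0 by DESeq2), beside 0% of 10975 genes called and 429 at unadjusted p under 0.05. Col4a1 differed by -0.37 (SE 0.21), Col4a2 by -0.36 (SE 0.22) and Col18a1 by -0.35, each with an edgeR adjusted p of 1.00. Without CKD 2, which left 1 CKD library, Col4a1 differed by -0.70 and Col4a2 by -0.74.

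Type IV and type XVIII genes were expressed along the whole tubule. Among tubular classes Col18a1 was highest in intercalated-like cells of the collecting duct, at 5.12 in the control, 4.55 and 4.42 in AKI and 4.78 and 4.28 in CKD, and these cells held 24.8% of its UMIs. Thin limb-like cells followed with 3.08 to 3.46, principal and connecting tubule-like cells with 2.55 to 3.52, and proximal tubule-like cells with 1.07 to 2.02, against 0.0289 to 0.146 in T lymphocyte-like cells. Intercalated-like cells were above thin limb-like and principal cells in all 5 libraries, while the ranges of the latter overlapped.

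The Alport chains differed in their main site by UMI number. Col4a4 had its largest share in principal and connecting tubule-like cells, and Col4a3 (20.2%) and Col4a5 (19.7%) in thin limb-like cells. By level, Col4a3 and Col4a4 were highest in podocyte-like cells outside CKD 1. These were 8, 9, 5 and 3 cells in the control, AKI 1, AKI 2 and CKD 2. They held 27, 83, 14 and 16 Col4a4 UMIs, so the rank of Col4a4 there rests on few molecules. Col4a4 was at 4.39, 2.86, 2.35, 2.83 and 2.95 in principal and connecting tubule-like cells, which held 30.9% of its UMIs. The control was the highest library for Col4a4 there and in thin limb-like (3.57 against 2.42 to 2.92), thick ascending limb-like (3.00 against 1.45 to 1.78), distal convoluted tubule-like (3.22 against 1.56 to 2.19), intercalated-like (2.86 against 1.25 to 1.91) and proximal tubule-like cells (1.07 against 0.534 to 0.849). Its level in T lymphocyte-like cells was also highest in the control, at 0.266 against 0.0115 to 0.0592. The control is 1 library, so this order has no replicate.

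Col4a3 was at 2.00, 1.96, 1.77, 1.60 and 1.49 in thin limb-like cells and 1.73, 0.999, 0.944, 1.14 and 1.27 in thick ascending limb-like cells, and lower in principal (0.600 to 0.904), distal convoluted tubule-like (0.490 to 0.904) and proximal tubule-like cells (0.277 to 0.682). Col4a5, the partner of both, was highest among tubular classes in thin limb-like cells, at 0.749 to 0.955. Col4a6, which pairs with Col4a5 in other basement membranes, reached 0.0708 to 0.12 there and 0.0532 to 0.177 in stromal-like cells, on 118 and 27 UMIs. Podocyte-like cells numbered 79, of which the 54 of CKD 1 had a podocyte marker sum of 11.9 against stromal and endothelial sums of 24.1 and 22.0, while the other libraries had podocyte sums of 78.4 to 174. The library labelled CKD 1 therefore went against the name of the class, and only it held 20 such cells, so no contrast of podocyte-like cells, with endothelial-like cells or between CKD and AKI, could be fitted. In the 22 podocyte-like cells found among the stromal clusters Col4a3 was at 20.4, 15.6, 10.2, 14.5 and 17.8 and Col4a4 at 8.83, 13.4, 4.33, 11.6 and 10.2, with pooled levels of 15.4 and 9.43.

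**Figure D3:**
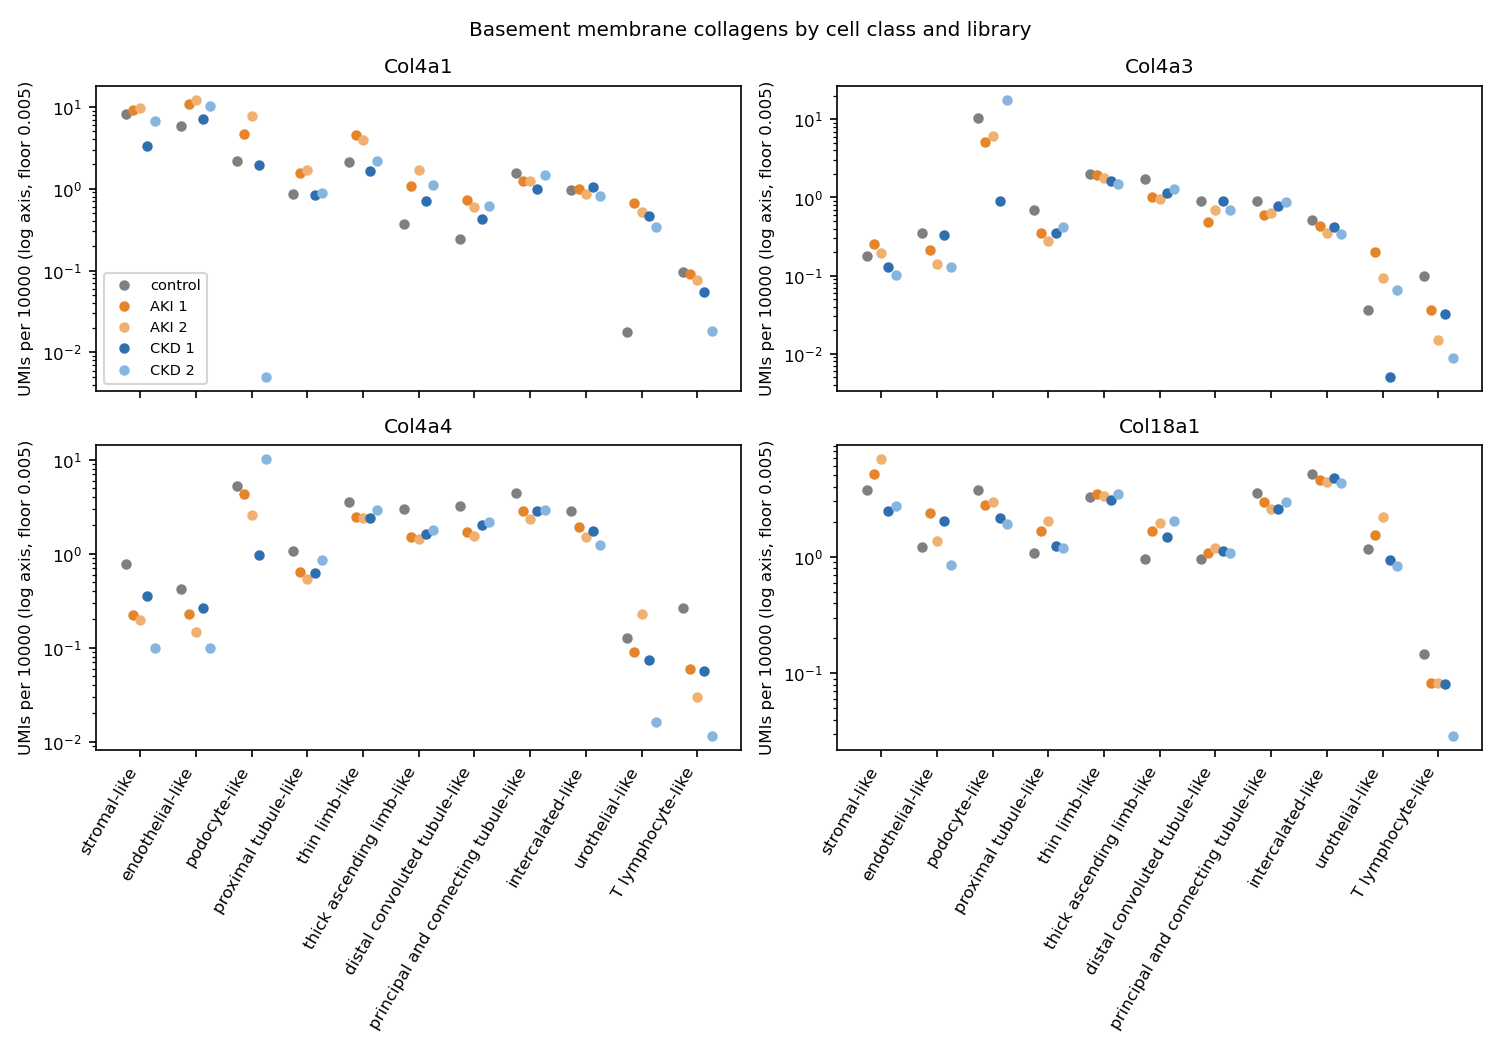
Levels of Col4a1, Col4a3, Col4a4 and Col18a1 (UMIs per 10000 UMIs, log axis with a floor of 0.005) by cell class, with 1 point for each of the 5 libraries. Col4a1 is highest on average in endothelial-like and stromal-like cells, Col4a3 in podocyte-like cells outside CKD 1 (5.19 to 17.8), and Col18a1 in intercalated-like cells among the tubular classes.

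The proportion of the chains differed between cell classes. The ratio of Col4a3 to Col4a4 UMIs was 0.179 to 0.271 in intercalated-like cells, 0.206 to 0.297 in principal cells, 0.281 to 0.445 in distal convoluted tubule-like cells, 0.5 to 0.638 in proximal tubule-like cells, 0.578 to 0.714 in thick ascending limb-like cells, 0.509 to 0.797 in thin limb-like cells, 0.813 to 1.29 in endothelial-like cells and 0.920 to 2.36 in podocyte-like cells. The 0.920 came from CKD 1, whose podocyte-like cells went against the name, and the other libraries gave 1.19 to 2.36. The collecting duct classes did not overlap with the proximal tubule-like and thick ascending limb-like cells, whereas intercalated-like and principal cells overlapped, as did the 3 more proximal classes. The ratio of Col4a1 to Col4a2, the pair of the general network, was 1.54 to 1.84 in endothelial-like and 1.33 to 1.65 in stromal-like cells, 2.69 to 3.36 in principal cells and 2.00 to 3.60 in distal convoluted tubule-like cells. T lymphocyte-like cells, as background, gave 0.365 to 0.760 and 1.43 to 1.81 for the same ratios.

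**Figure D4:**
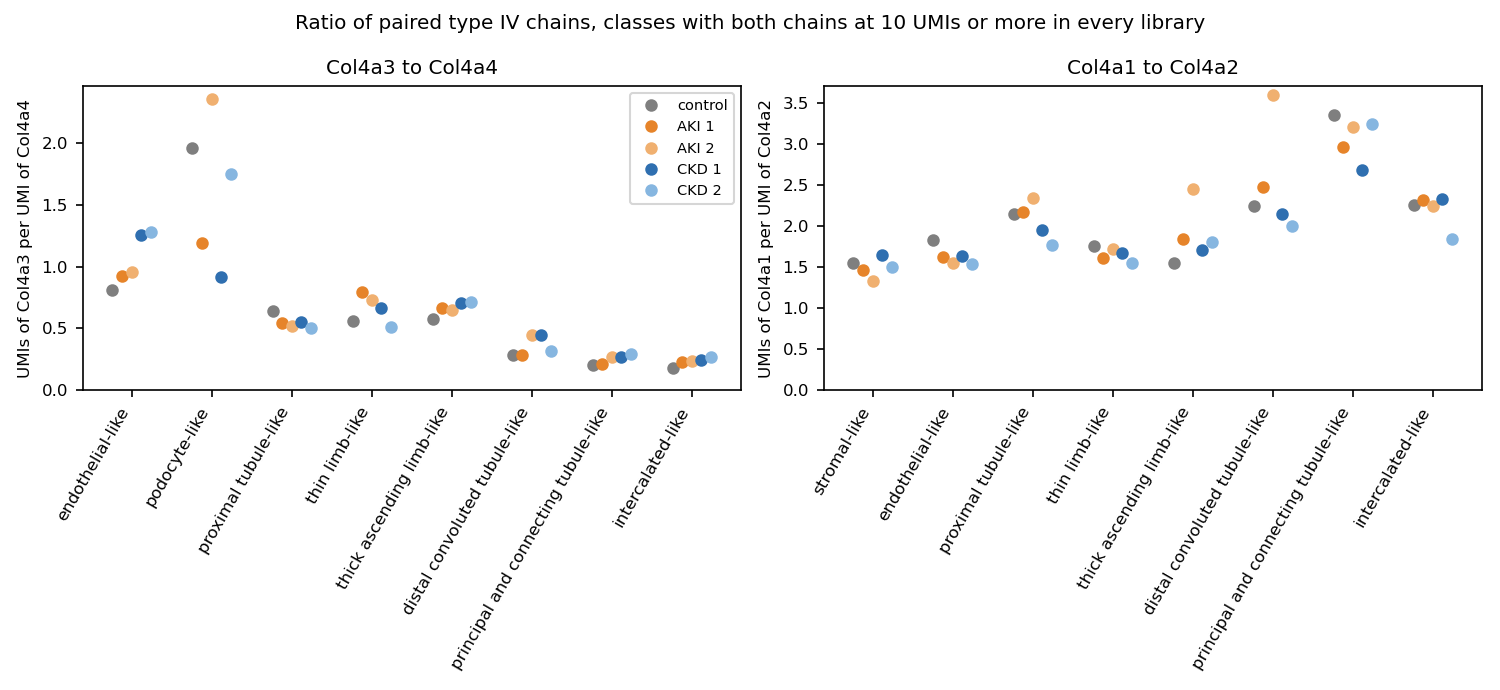
Ratio of Col4a3 to Col4a4 UMIs and of Col4a1 to Col4a2 UMIs (vertical axes) in the cell classes with at least 10 UMIs of both chains in every library, with 1 point per library. The first ratio is low in intercalated-like and principal cells (0.179 to 0.297) and near or above 1 in endothelial-like and podocyte-like cells, and the second is above 2 in principal cells (2.69 to 3.36). The lowest podocyte-like point, 0.920, is CKD 1, whose cells went against the name.

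Col4a1 was higher in AKI than in CKD in 2 tubular classes without passing edgeR's threshold. In thin limb-like cells it was at 2.14 in the control, 4.55 and 3.96 in AKI and 1.63 and 2.17 in CKD (-1.12, SE 0.17, edgeR adjusted p = 0.157), and Col4a2 differed by -1.08 (SE 0.20, adjusted p = 0.246). In proximal tubule-like cells it was at 0.861, 1.56, 1.68, 0.839 and 0.875 (-0.87, SE 0.17, adjusted p = 0.104). In each class the CKD levels were back at or near the control level, and DESeq2 called Col4a1 in both classes and Col4a2 in the first. The 8 injured tubule markers, among them Havcr1 and Krt20, summed to 2.50, 10.9, 10.1, 2.49 and 4.74 in thin limb-like cells and to 0.347, 3.75, 3.97, 1.81 and 0.820 in proximal tubule-like cells, and their part in these values was not tested.

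A few collagen genes of the fibrillar and other groups had their main site outside the stroma. Col5a2 had 48.8% of its UMIs in thick ascending limb-like cells, where it was at 2.97 in the control, 0.249 and 0.185 in AKI and 0.387 and 0.146 in CKD. The control was thus above every AAI library by a wide margin, and Col5a1, its partner chain in type V collagen, had 2 UMIs in the same cells against 1703 of Col5a2. With a stricter mitochondrial limit of 15% the control level was 1.02. The 6 thick ascending limb markers summed to 389 in the control and 121 to 164 in the AAI libraries, and the injured tubule markers to 0.390 and 22.4 to 39.3, and their part in the control level was not tested. In distal convoluted tubule-like cells Col5a2 was at 0.637, 0.716, 0.615, 0.683 and 0.628, with overlapping counting intervals in all 5 libraries.

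Col27a1, a fibrillar collagen gene best known from cartilage, had 39.5% of its UMIs in proximal tubule-like cells, at 1.78 in the control, 0.679 and 0.405 in AKI and 0.647 and 1.27 in CKD (0.86, SE 0.34, edgeR adjusted p = 0.371). The control was highest and AKI and CKD overlapped. It was at 0.427 to 0.783 in principal cells and 0.311 to 0.655 in intercalated-like cells. Col26a1 had 78.1% of its UMIs in principal and connecting tubule-like cells, at 0.561, 0.374, 0.261, 0.269 and 0.273, and Col24a1, another fibrillar gene, 75.2% in intercalated-like cells, at 0.0240, 0.0520, 0.134, 0.0619 and 0.0717. For Col24a1 the exact 95% Poisson intervals of the control (0.0155 to 0.0354) and AKI 2 (0.0931 to 0.188) did not overlap. Col8a1, low in most tubular classes, was at 0.113 to 0.224 in proximal tubule-like cells, which held 42.2% of its UMIs.

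**Figure D5:**
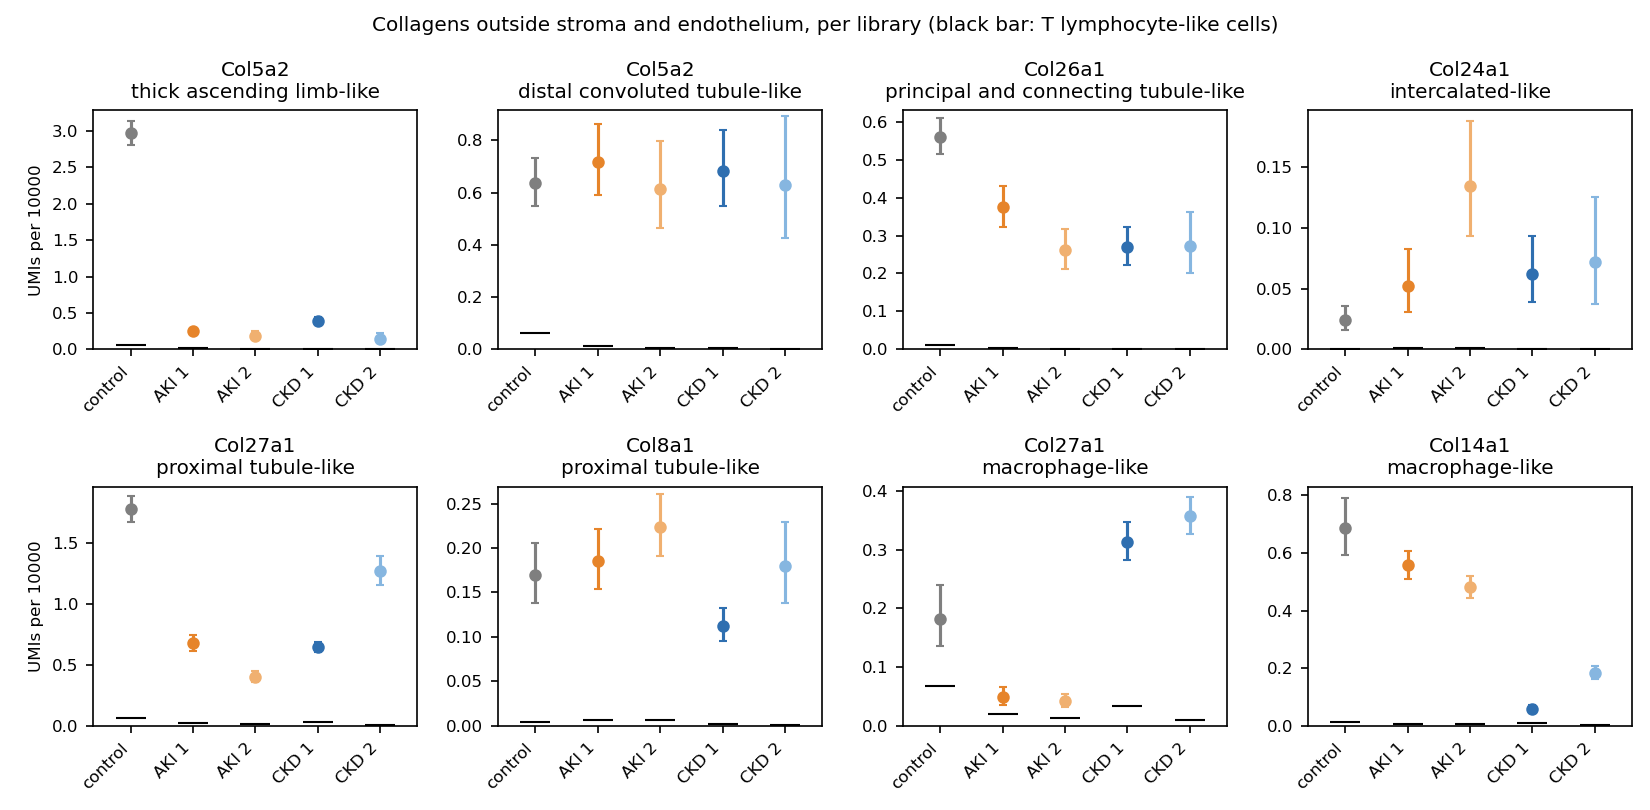
Levels of collagen genes in classes other than stromal-like and endothelial-like cells (8 panels, vertical axes in UMIs per 10000 UMIs) for each library, with exact 95% Poisson intervals, and a black bar at the level of the same gene in T lymphocyte-like cells of that library. Col5a2 in thick ascending limb-like cells is at 2.97 in the control and at most 0.387 elsewhere, and Col27a1 and Col14a1 in macrophage-like cells separate CKD from AKI in opposite directions.

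Macrophage-like cells were the only class in which collagen genes passed the test between CKD and AKI. Of 13 tested, 3 had an edgeR adjusted p under 0.05 (3 also at unadjusted p under 0.05 and 3 by DESeq2), beside 29.5% of all genes called, so the members' share was near the background. Over all 12571 genes tested, 5316 had an unadjusted p under 0.05. Col27a1 rose, from 0.0492 and 0.0420 in AKI to 0.313 and 0.357 in CKD, with 0.183 in the control (2.71, SE 0.20, edgeR adjusted p = 0.00394). Col14a1 fell, from 0.558 and 0.481 to 0.0568 and 0.183, with 0.688 in the control (-2.25, SE 0.54, edgeR adjusted p = 0.0332). Col18a1 rose, from 0.0689 and 0.0550 to 0.242 and 0.126, with 0.186 in the control (1.38, SE 0.33, edgeR adjusted p = 0.0326), at levels that reached into its T lymphocyte-like background of 0.0289 to 0.146. In T lymphocyte-like cells Col27a1 was at 0.0108 to 0.0676, a range that holds both AKI levels of macrophage-like cells, and Col14a1 at 0.00252 to 0.0127. Without AKI 1 the adjusted p-values by edgeR were 0.0789, 0.166 and 0.180 for Col27a1, Col14a1 and Col18a1, and without AKI 2 they were 0.0728, 0.13 and 0.247. Without CKD 1 or CKD 2, in fits with 1 CKD library, more members passed, and so did more of all genes tested. With a mitochondrial limit of 15% Col14a1 missed the threshold (adjusted p = 0.0520), as did Col18a1 with doublets kept (adjusted p = 0.0566) or without correction by library (0.70, adjusted p = 0.111), where Col14a1 fell by 1.32.

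The clusters that made up this class differed between AKI and CKD. A cluster led by Ccl8 and C1qa held 587 of 891 macrophage-like cells of AKI 1, 799 of 1264 of AKI 2, 1008 of 2023 of CKD 1 and 307 of 738 of CKD 2, and a cluster that Ctsk, Mmp9 and Acp5, genes of bone-resorbing osteoclasts, led over all its cells held 707 cells of CKD 1, 295 of CKD 2, 112 of AKI 1 and 182 of AKI 2. Its AKI cells went against these leading genes, with Ctsk at 0.217 and 3.27 and the macrophage gene C1qa at 36.1 and 39.2, whereas its CKD cells had Ctsk at 49.9 and 50.2 and C1qa at 1.49 and 1.25. In this cluster Col27a1 was at 0.0646 and 0.0627 in AKI and 0.380 and 0.506 in CKD, and Col14a1 at 0.722 and 0.518 against 0.0267 and 0.0209. In the Ccl8 cluster Col14a1 was at 0.728 in the control, 0.539 and 0.480 in AKI, 0.133 in CKD 1 and 0.539 in CKD 2, and Col27a1 at 0.181, 0.0325, 0.0274, 0.125 and 0.0206. The former values thus set cells with Ctsk and little C1qa in CKD beside cells with C1qa and little Ctsk in AKI, and in the Ccl8 cluster CKD 2 was level with AKI while CKD 1 was not. The 7 macrophage markers summed to 203 in the control, 391 and 402 in AKI and 31.7 and 77.1 in CKD in the class, and their part in these differences was not tested.

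Cells named monocyte-like added Col14a1 in CKD 1 alone. Their 374 cells of CKD 1 held 260 Col14a1 UMIs (0.702), against 0 UMIs in the monocyte-like cells of the other 4 libraries (exact 95% upper limits of 0.0551 to 0.646). Their macrophage markers summed to 182 and their monocyte markers to 5.23, against the name. With monocyte-like and macrophage-like cells counted together, which was chosen after seeing the data, Col14a1 was at 0.674, 0.547, 0.467, 0.211 and 0.175 and still fell (-1.55, SE 0.14, edgeR adjusted p = 0.000707). Col27a1 (2.55, adjusted p = 0.000750) and Col18a1 (1.25, adjusted p = 0.0136) still rose.

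In the 13 other classes compared, edgeR called 0 collagen genes. The members tested, those with an unadjusted p under 0.05 and the share of all genes called were 16, 3 and 12.2% in T lymphocyte-like cells, 11, 4 and 0.00807% in proximal tubule-like cells, 10, 3 and 0.026% in thick ascending limb-like cells, 9, 3 and 0.009% in thin limb-like cells, 8, 2 and 1.68% in distal convoluted tubule-like cells, 10, 1 and 0% in principal cells and 10, 0 and 0.111% in intercalated-like cells. They were 5, 2 and 0% in urothelial-like cells and 4, 1 and 0.0496% in dendritic-like cells. Over all genes, unadjusted p was under 0.05 for 3924 of 13715 in T lymphocyte-like, 1426 of 12387 in proximal tubule-like and 1205 of 11533 in thick ascending limb-like cells. It was so for 937 of 11106 in thin limb-like, 1200 of 8894 in distal convoluted tubule-like and 793 of 11570 in principal cells. The counts were 1180 of 10833 in intercalated-like, 770 of 7157 in urothelial-like and 776 of 10086 in dendritic-like cells. No member passed the filter on low counts in natural killer-like (0.0495% of all genes called), B lymphocyte-like, monocyte-like and neutrophil-like cells (0% each). DESeq2 called 2 members in T lymphocyte-like, 1 in proximal tubule-like and 2 in thin limb-like cells. Fits without CKD 1 or CKD 2, which left 1 CKD library, called members in some of these classes. In those classes more of all genes were called too.

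The collagens of the immune and urothelial classes were few. In urothelial-like cells Col18a1 (500 UMIs, 0.837 to 2.19), Col4a1 (160 UMIs) and Col4a2 (79 UMIs) led. In dendritic-like cells Col27a1 led with 138 UMIs and was at 0.0719, 0.0462, 0.0421, 0.136 and 0.0730, each above its T lymphocyte-like level of the same library, though in the control (0.0676) by less than counting error. The Col18a1 and Col4a1 UMIs of dendritic-like cells, 85 and 82, gave levels of at most 0.102 and 0.0995, beside background levels of up to 0.146 and 0.0972. B lymphocyte-like, natural killer-like and neutrophil-like cells held at most 29 UMIs of any collagen gene.

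The genes that build, process and bind collagens were read from 3 lists. Of 205 tests of chain assembly genes over the classes 1 rose and 3 fell in CKD against AKI, of 53 tests of procollagen processing and cross-linking genes 0 passed, and of 62 tests of collagen receptors 1 rose and 2 fell. None of these calls was in stromal-like or endothelial-like cells. All but 1 were in macrophage-like cells, with 4 of 15 chain assembly genes and 2 of 6 receptors tested there, beside 29.5% of all genes called in that class and 12.2% in T lymphocyte-like cells, so the counts were near the background. Among macrophage-like cells P4ha1, a subunit of the prolyl hydroxylase that stabilises the triple helix, fell from 0.429 and 0.478 to 0.249 and 0.250 (-1.04, SE 0.13, edgeR adjusted p = 0.00713), with 0.326 in the control. P3h3 (-1.85, adjusted p = 0.0107), another prolyl hydroxylase, and Mia3 (-0.68, adjusted p = 0.0144), which exports procollagen from the endoplasmic reticulum, also fell, while Crtap (0.85, adjusted p = 0.0376), a partner of prolyl hydroxylases, rose. Lair1, an inhibitory collagen receptor of leukocytes, fell from 1.31 and 1.44 to 0.174 and 0.463 (-2.26, adjusted p = 0.0242), and the gene Itga2 of a collagen-binding integrin (2.62, adjusted p = 0.0108) rose. In T lymphocyte-like cells Itga1, a collagen-binding integrin of resident T cells, fell from 0.454 and 0.445 to 0.242 and 0.255 (-0.85, SE 0.08, edgeR adjusted p = 0.00868), with 0.634 in the control.

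The remaining members were scarce. Col13a1 (447 UMIs), Col16a1 (372), Col23a1 (236), Col7a1 (222), Col11a2 (184), Col5a3 (169), Col24a1 (149) and Col20a1 (145) had over 100 UMIs each. Col16a1, which associates with fibrils, had 39.8% of its UMIs in stromal-like cells, and Col11a2 and Col23a1 had their largest share in T lymphocyte-like cells, the class used as background. The cartilage genes Col2a1 and Col10a1 had 15 and 9 UMIs.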

How the data were processed

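Droplet single-cell RNA-seq (10x Chromium 3′ chemistry) of mouse kidney was analysed in 5 libraries. The deposited matrices hold raw UMI counts for each pair of gene and barcode, which the authors made by alignment, UMI counting and cell calling in Cell Ranger. The submitters' processing notes name Cell Ranger 7.2.0, STAR and GRCm39, the headers of the AKI and CKD matrices name Cell Ranger 5.0.0, and the control had been exported again with a gene list that names mm10. The ambient RNA removal, integration and doublet calls of the study were not repeated.

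Cells with at least 200 genes and at most 30% mitochondrial UMIs were kept, and the cells most like simulated doublets were removed per library at a rate that grew with its number of cells (672 to 2984 cells). Log-normalized counts of 3000 variable genes, collagen genes excluded, gave 40 principal components, which were corrected by library with a Harmony procedure written for this purpose and clustered with 15 neighbours by leidenalg 0.10.2 at resolution 1.5 (subclusters 0.5). Clusters were named from marker lists without collagen genes, with at least 3 markers detected. The rules that set aside clusters led by genes of another class, and 4 endothelial-like subclusters, were settled after the clusters were seen.

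UMIs were summed per class and library. CKD was compared with AKI in the 16 classes with at least 20 cells in each of the 4 libraries, and stromal-like with endothelial-like cells in all 5, by edgeR 4.0.16 quasi-likelihood tests in R 4.3.3 (TMM, filterByExpr, Benjamini-Hochberg adjustment over all genes tested, threshold 0.05, two-sided). Log2 fold changes carry their standard error (SE). Exact 95% Poisson intervals (scipy 1.17.1) and zero limits cover counting error only. The scripts were tested on simulated counts. Alternatives were DESeq2 1.42.0, RLE size factors, no filter on low counts, a replicate block, each library left out, doublets kept, a 15% mitochondrial limit, no correction by library and collagen genes among the features.

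Collagen members and the gene lists were chosen with earlier results of these data known. Members named with values were those past the threshold in any class, the 10 with the most UMIs, the 3 with the most UMIs in each class, and Col1a1, Col1a2, Col3a1 and Col4a1 to Col4a6. Others, such as Col5a1, Col6a1 to Col6a3, Col8a1, Col12a1, Col13a1, Col15a1, Col24a1 and Col26a1, were chosen after their values were seen. Promoter sequences came from RefSeq (GRCm38.p6) and matched 35 of 44 members by symbol. A list of basement membrane partners and a stromal-like subcluster are not reported here.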

Additional observations from a re-analysis of the deposited data

How the results depend on the processing

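In stromal-like cells, where edgeR called 0 collagen genes between CKD and AKI, DESeq2 called 1, the test without a filter on low counts 7, the test with the replicate number as a block 2 (Col12a1 at -1.48 and Col8a1 at -2.14), and leaving out 1 library each gave 0 to 9. In endothelial-like cells, also at 0, leaving out 1 library gave 0 to 4. In the other classes together, with 3 calls, DESeq2 gave 8, no filter 16, the replicate block 5 and leaving out 1 library 0 to 27. Stromal-like against endothelial-like cells kept 19 to 29 calls against 22, the least by DESeq2 and the most without the filter, which tests more genes. In all, 3 directions turned with 1 library left out, none past the threshold where it turned: Col1a1 in stromal-like cells from -0.16 to 0.24 without CKD 1 (range -0.70 to 0.24), Col1a2 from 0.14 to -0.18 without CKD 2 (range -0.18 to 0.40), and Col4a2 between stromal-like and endothelial-like cells from -0.18 to 0.024 without CKD 1 (range -0.42 to 0.024). The mean Col4a1 level of endothelial-like cells, 9.27, was 11 to 11.4 with doublets kept, without correction by library or with the 15% mitochondrial limit, and that of Col5a2 in thick ascending limb-like cells was 0.394 with that limit. Of 483 values of single genes and levels, 430 were kept. For single genes this means the same direction and side of the threshold, and for levels a mean within the spread of the replicate libraries. Of 54 values of the main results, mostly counts of calls, 14 moved beyond a fixed margin. The cause of these changes was not tested.

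Libraries with the same replicate number deviated together only weakly (correlations of -0.119 to 0.239 over the classes). Whether they share more than the number cannot be told from these correlations. Crossing the CKD numbers in monocyte-like cells, added after seeing the data, could not change the 3 calls of the other classes. No collagen gene passed the filter on low counts in monocyte-like cells. Under the settings that clustered again, distal convoluted tubule-like, monocyte-like or urothelial-like cells had under 20 cells in a library and were not run in 6 cases. Podocyte-like cells, too few in the main setting, were not tried under these settings. Median UMIs per cell were lowest in CKD 1, and its part in these changes was not tested.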

Other observations

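A cluster of 192 cells that the markers left unnamed, led by Ncam1, Akap12, Ankrd1, Cp and Cldn1, carried 4852 Col4a1 UMIs and 4389 Col18a1 UMIs. Its Col4a1 level was 10.2 in the control, 9.20 and 11.7 in AKI and 8.83 and 9.01 in CKD, and its Col18a1 level 11.1, 7.48, 8.16, 8.53 and 7.56. Its Col18a1 level was above that of intercalated-like cells (4.28 to 5.12) in all 5 libraries. Col4a2 was at 4.56, 4.37, 4.34, 3.30 and 4.84, and Col4a5, on 585 UMIs, at 1.59, 1.00, 1.01, 0.851 and 1.20.

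Subclusters with few stromal-like cells also held collagen RNA. In 18 cells led by Apod, Trf and Hp, which stayed unnamed, the pooled levels were 13.3 for Col1a2, 10.9 for Col4a1 and 8.22 for Col6a1. In 31 cells led by Grip2, Myom1 and Ptgs2, Col4a1 and Col18a1 had 26 UMIs each.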
